A study of Mus musculus with 6 samples.

Results

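The mitochondrial ribosomal protein genes were taken as the genes of the deposited expression table whose symbol starts with Mrpl or Mrps and a digit. This rule found 78 of the 21959 genes of the table, 49 of the large subunit (Mrpl) and 29 of the small subunit (Mrps), and no measured value entered it. Transcripts were sequenced from full-thickness skin of the back of wild-type male C57BL/6 mice, shaved at the age of 7 weeks during telogen, the resting phase of the hair cycle. In the vehicle group, 3 mice received 30% dipropylene glycol in distilled water on the shaved skin, and in the rebamipide group, 3 mice received 3% rebamipide, a mucosa-protective drug. Both groups were treated daily for 7 days. The comparison asks which transcripts differ in skin after a week of treatment.

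Mitochondria carry their own ribosome, which translates the few proteins encoded by mitochondrial DNA, all of them subunits of the respiratory chain or of ATP synthase. Its ribosomal RNAs come from mitochondrial DNA, while its proteins are encoded in the nucleus, made on cytosolic ribosomes and imported. Some of these proteins have counterparts in bacterial ribosomes and others are found in mitochondria alone, and tissues rich in mitochondria, such as heart, muscle and brown fat, hold much of this machinery.

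The total counts ranged from 38676018 to 39915276 in the vehicle libraries and from 32709801 to 34706852 in the rebamipide libraries. Of these counts, genes of mitochondrial DNA held 13.3%, 19.4% and 21.96% in rebamipide libraries 1, 2 and 3, against 2.59% to 5.36% with vehicle. Normalized counts (CPM) were therefore computed with edgeR's TMM factors. The libraries differed in the markers of skin cell types. The 6 basal keratinocyte markers summed to 2452 to 3977 CPM in the vehicle group and to 1141, 707 and 131 CPM in the rebamipide group, and Krt14 and Krt15 were at 0 counts in rebamipide library 3. The 6 suprabasal keratinocyte markers summed to 1025 to 4923 CPM with vehicle and to 1165, 788 and 2.36 CPM with rebamipide, with Ivl, Flg2 and Dsg1a at 0 in rebamipide library 3. The 6 fibroblast markers summed to 11996 to 17726 CPM and to 15104, 3502 and 1849 CPM. The 6 markers of the growing hair follicle summed to 14947, 6764 and 158 CPM in vehicle libraries 1, 2 and 3 and to 791 and 0.156 CPM in rebamipide libraries 1 and 2. All 6 were at 0 in rebamipide library 3, where 0 counts allow up to 0.114 CPM, a limit of 3 counts that covers counting error only. Defining markers of epidermis and hair follicle were thus absent or low in a library labelled skin, and its tissue content is in doubt. The 8 brown adipocyte markers, of which 6 rose at the threshold used below, summed to 203 to 354 CPM in the vehicle group, with Ucp1 at 0 in all 3 libraries, and to 4837, 12687 and 10372 CPM in the rebamipide group. Elovl3, also among the 8, lay lower in all rebamipide libraries, with a log2 fold change of -1.45, and did not pass the test. The 8 fast muscle markers ranged from 5156 to 25711 CPM and from 266 to 32619 CPM, respectively. The 5 slow muscle markers, of which 3 rose, summed to 1.80 to 12.8 CPM and to 256, 118 and 5.99 CPM. The 8 general adipocyte markers (6 rose) summed to 1483 to 4383 CPM and to 10453 to 18204 CPM, the 5 endothelial markers (3 rose) to 203 to 471 CPM and to 968 to 1408 CPM, and the 5 blood markers (3 rose) to 42.4 to 199.8 CPM and to 345 to 808 CPM. In bulk tissue, more cells of a type and more RNA per cell cannot be told apart.

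Promoter windows of members are shown first, as examples of the letters that were searched in the promoters of all members. RefSeq promoters (build GRCm38.p6, 250 bases before to 50 bases after the start) were found for 69 of the 78 members, 43 of the large and 26 of the small subunit. They were searched on both strands for the letters of NRF1 (GCGC, any base, then TGCGC) and for CCGGAAGT of GABPA, which are known regulators of nuclear genes for mitochondria, and for AAGATGGCG of YY1, a widely expressed zinc finger factor. The windows below run 5′ to 3′ on the strand of the gene, with the matched letters in capitals and 10 bases on either side. The first 5 are matches to the NRF1 letters in Mrpl12 (chr11:120484546-120484575, plus strand), Mrpl30 (chr1:37890384-37890413, plus), Mrpl39 (chr16:84735350-84735379, minus), Mrpl45 (chr11:97315668-97315697, plus, as the reverse complement) and Mrps21 (chr3:95871586-95871615, minus). The next are matches to the GABPA letters in Mrpl51 (chr6:125192100-125192127, plus) and, as the reverse complement, in Mrps18c (chr5:100798592-100798619, plus), and a reverse-complement match to the YY1 letters in Mrps11 (chr7:78783013-78783041, plus).
Mrpl12: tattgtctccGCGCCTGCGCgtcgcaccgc
Mrpl30: tgacgccgctGCGCCTGCGCtgtcttctat
Mrpl39: aaggagaggcGCGCATGCGCccccgcgtgg
Mrpl45: tggtttcattGCGCACGCGCgaacccactg
Mrps21: ggaaagtccaGCGCCTGCGCtcagcaccga
Mrpl51: aggggctaaaCCGGAAGTatttgactgg
Mrps18c: gggtcacgtgACTTCCGGcccgggaagc
Mrps11: ctacgggcgcCGCCATCTTtctgtcttcc

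The NRF1 letters were in 13 of the 69 member promoters (18.8%), against 5.19% of the 27025 promoters of all genes. They were in 10 of 43 large subunit promoters (23.3%) and in 3 of 26 small subunit promoters (11.5%). The GABPA letters were in 12 member promoters (17.4%, against 4.31% of all) and the YY1 letters in 8 (11.6%, against 1.64% of all). In nuclear genes of respiratory chain and ATP synthase subunits (OXPHOS), the NRF1 letters were in 27.0%, the GABPA letters in 7.94% and the YY1 letters in 11.1% of 63 promoters. In 68 promoters of cytosolic ribosomal proteins the shares of the NRF1, GABPA and YY1 letters were 8.82%, 17.6% and 5.88%. The members' share was thus close to that of the cytosolic list for the GABPA letters and to that of the OXPHOS list for the YY1 letters. The letters TCAAGGTCA of the ERR receptors, searched after the data were seen, were in 0 of the 69 member promoters, in 2 OXPHOS promoters and in 0.466% of all. These are matches of letters and not measured binding. Of the members shown, Mrpl12, Mrpl30 and Mrpl39 were among the 5 large subunit genes with the largest rise, while Mrps18c did not pass the test. The NRF1 letters were also in the promoters of Mrpl57, Mrps26 and Mrpl14, which did not pass the test (log2 fold changes 0.43, 0.54 and 0.68).

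Genes of both subunits rose in rebamipide-treated skin (a rise is an adjusted p-value under 0.05 in edgeR's quasi-likelihood test over 14875 genes). Of 48 large subunit genes tested, 38 rose, with a median log2 fold change of 1.17 over the 48 genes and an interquartile range of 0.90 to 1.48. Of 29 small subunit genes, 25 rose, with a median of 1.34 and an interquartile range of 0.98 to 1.55. Over all genes tested, 14.1% rose and 6.51% fell, and the median was -0.17. In edgeR, DESeq2 and limma-voom alike 0 members fell, and 0 were lower at an unadjusted p-value under 0.05 in edgeR. The difference between the medians of the subunits was not tested. The CPM of all 3 rebamipide libraries lay above those of all 3 vehicle libraries for 74 of the 77 members tested, against 24.5% of all genes. The exceptions were Mrpl52, Mrpl1 and Mrpl19. The smallest adjusted p-value of a member was 0.00939.

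The number of calls depended on which library was left out. Without vehicle library 1, vehicle library 3 and rebamipide library 1, edgeR called 59, 55 and 68 members, against 63 with all libraries. Over all genes it called 1886, 2560 and 4781 in these fits, in either direction, against 3061 with all libraries. Without vehicle library 2, and likewise without rebamipide library 2, edgeR called 0 members, with 65 at an unadjusted p-value under 0.05 in each case. Over all genes it then called 0 of 14964 and 1 of 15335. DESeq2 called 60 and 69 members in these comparisons, with 3518 and 4957 genes called in either direction over all genes, and 70 members with all libraries, where it called 18.3% of all genes higher. Without rebamipide library 3, which lacked the keratinocyte markers named above, edgeR called 37 members, 23 of the large and 14 of the small subunit, and the medians were 1.12 and 1.25. Over all genes this fit called 1394 of 15327 in either direction. The adipocyte, endothelial, blood, basal keratinocyte and mitochondrial DNA values given above moved with the same groups, as did those of slow muscle in rebamipide libraries 1 and 2 but not 3, and their part in the rise was not tested.

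**Figure D1:**
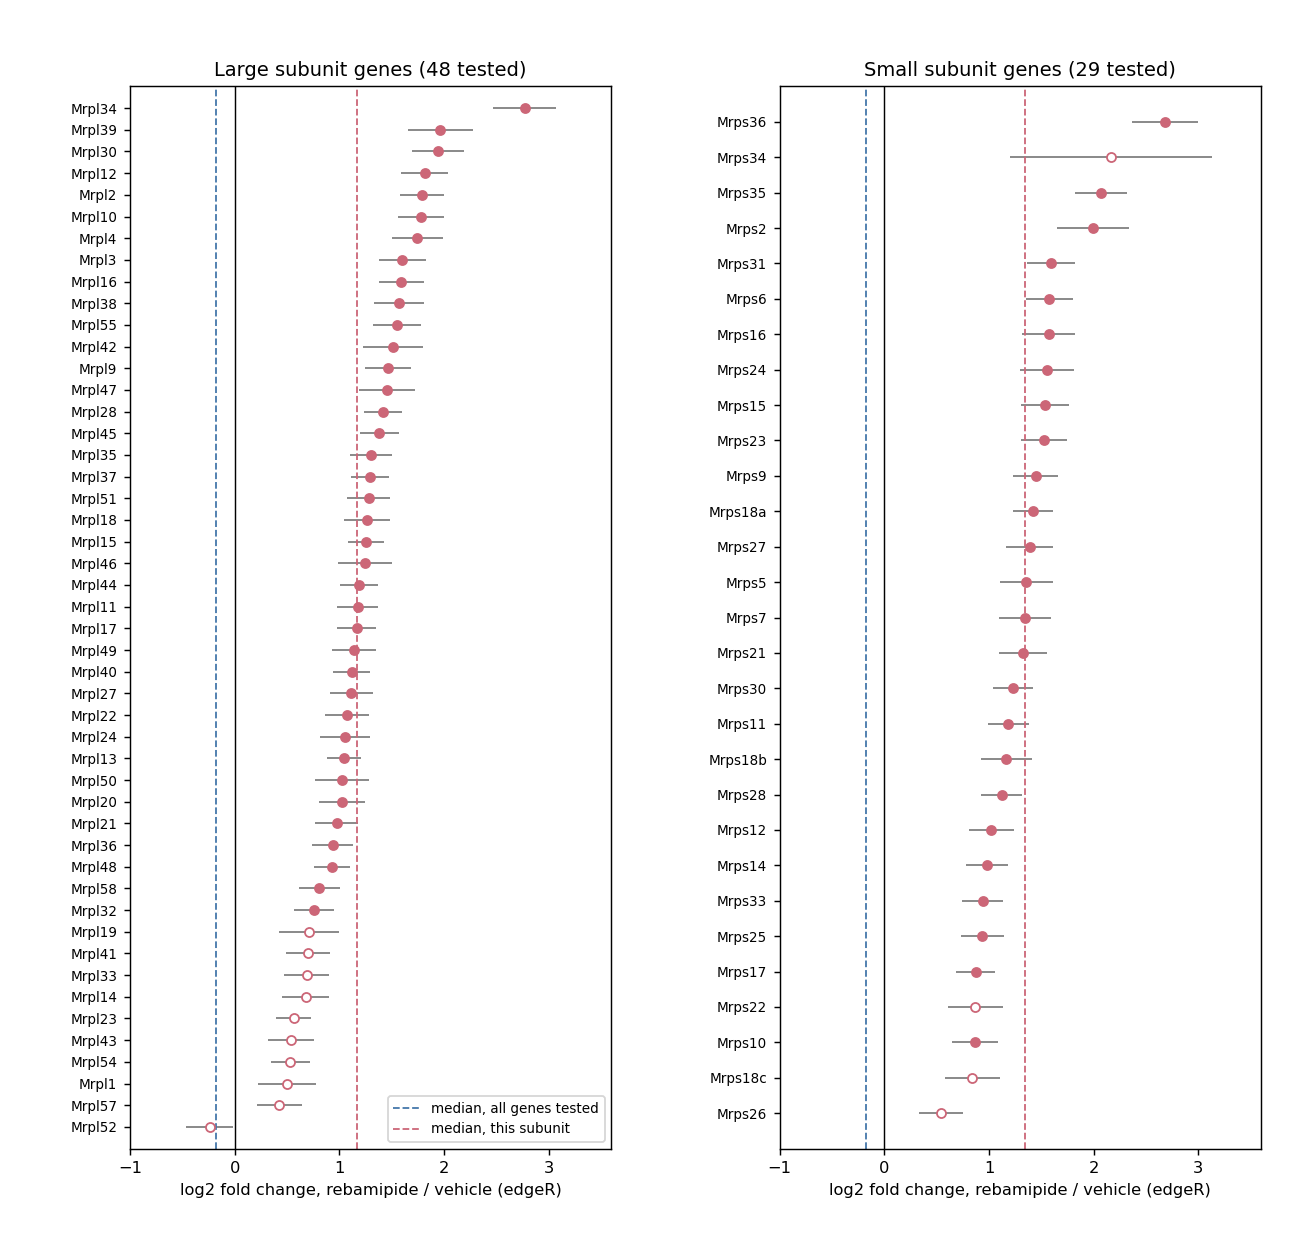
Log2 fold change of rebamipide over vehicle for the 77 members tested, with bars of 1 standard error, large subunit left and small subunit right. Filled points passed the adjusted p-value of 0.05 (38 of 48 and 25 of 29). The blue dashed line is the median of all genes tested (-0.17), and 76 of 77 members lie above 0.

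Among large subunit genes, Mrpl34 (chr8:71917603-71918391), a protein with a bacterial counterpart, rose most. Its levels were 13.7, 12.3 and 14.1 CPM in vehicle libraries 1, 2 and 3 and 58.6, 95.9 and 120.0 CPM in the rebamipide libraries, a fold change of 6.84. The groups did not overlap, and rebamipide library 1 was the lowest of its group. The log2 fold change was 2.77 ± 0.30 (SE), with an adjusted p-value of 0.00939 in edgeR. Mrpl39 (chr16:84514464-84532630), a mitochondria-specific protein, was at 37.0, 26.4 and 24.7 CPM in vehicle-treated and at 74.2, 131 and 139 CPM in rebamipide-treated skin. Vehicle library 1 was its highest vehicle library, and the groups did not overlap. Mrpl30 (chr1:37929558-37937616), with a bacterial counterpart, was at 50.7, 55.0 and 53.1 CPM and at 145, 219 and 248 CPM. The spread between its vehicle libraries was small against that between its rebamipide libraries. The log2 fold changes of Mrpl39 and Mrpl30 were 1.97 ± 0.31 and 1.94 ± 0.25, with adjusted p-values of 0.0132 and 0.00993 in edgeR.

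Mrpl12 (chr11:120375439-120379891) forms part of the stalk that recruits translation factors, and has also been reported to bind the mitochondrial RNA polymerase. It was at 39.1, 37.2 and 45.0 CPM with vehicle and at 107, 153 and 167 CPM with rebamipide. Its rebamipide values all lay above the vehicle values, with library 3 the highest. Mrpl2, a core protein near the peptidyl transferase centre, was at 25.2, 24.9 and 27.3 CPM and at 68.2, 97.9 and 102 CPM, again without overlap. The log2 fold changes of Mrpl12 and Mrpl2 were 1.82 ± 0.23 and 1.79 ± 0.21, with adjusted p-values of 0.00993 and 0.00939 in edgeR. Per gene length, Mrpl34, Mrpl12 and Mrpl2 had the highest mean FPKM of the large subunit. Their FPKM were 27.3 ± 2.08, 32.7 ± 2.79 and 27.3 ± 0.973 (SD, n = 3) in vehicle-treated skin and 119 ± 29.8, 73.9 ± 8.77 and 60.8 ± 6.05 in rebamipide-treated skin. Mrpl34 thus had a lower mean FPKM than Mrpl12 in vehicle-treated skin and a higher one in rebamipide-treated skin.

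Mrpl45 lies at the exit of the peptide tunnel and holds the ribosome at the inner membrane. It was at 27.3, 31.2 and 33.2 CPM with vehicle and at 68.1, 87.9 and 82.9 CPM with rebamipide, and rose with a log2 fold change of 1.38 ± 0.18 (adjusted p-value 0.0101, edgeR). Mrpl58 (also known as ICT1) is a peptidyl-tRNA hydrolase that rescues stalled ribosomes. Its level rose less, from 20.4, 15.5 and 16.4 CPM to 30.1, 30.8 and 30.8 CPM. The rebamipide libraries were close to each other for this gene, unlike for the genes above, and its log2 fold change was 0.81 ± 0.20 (adjusted p-value 0.037, edgeR).

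At the other end, 10 large subunit genes did not pass the test. Mrpl52 (chr14:54664366-54667213) was the single member with a log2 fold change below 0, with 14.0, 11.9 and 14.4 CPM in the vehicle libraries and 12.2, 10.1 and 11.7 CPM in the rebamipide libraries. Its groups overlapped, and the log2 fold change was -0.24 ± 0.22 (adjusted p-value 0.453, edgeR). With total counts alone as scaling it was called lower, at -0.84 (adjusted p-value 0.0456, edgeR). Mrpl1 was at 17.1, 16.9 and 15.8 CPM with vehicle and at 15.6, 26.5 and 28.5 CPM with rebamipide, so that rebamipide library 1 lay below all vehicle libraries. Mrpl57, Mrpl54 and Mrpl43 had log2 fold changes of 0.43, 0.53 and 0.54, and in these all rebamipide libraries were above all vehicle libraries. Their adjusted p-values in edgeR were 0.19, 0.0915 and 0.126. Mrpl54 was at 13.6, 13.2 and 13.0 CPM and at 19.9, 18.4 and 19.3 CPM, with the smallest SD between vehicle libraries among these genes.

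In the small subunit, Mrps36 (chr13:100872463-100881167) rose most, from 17.9, 23.2 and 25.8 CPM in the vehicle libraries to 91.8, 159 and 178 CPM in the rebamipide libraries. The log2 fold change was 2.68 ± 0.32 (adjusted p-value 0.00939, edgeR). Despite its symbol, Mrps36 is known as a component of the α-ketoglutarate dehydrogenase complex of the TCA cycle and not as a ribosomal protein. Without it and with Mrps30 and Mrps18a counted with the large subunit, where structures place them, 40 large and 22 small subunit genes rose, and the medians were 1.18 and 1.33. Mrps35 (chr6:146944262-146975489), a mitochondria-specific protein, was at 19.3, 16.6 and 17.3 CPM and at 53.1, 84.1 and 86.8 CPM. Mrps2 (chr2:28358078-28361190), with a bacterial counterpart, was at 35.1, 23.4 and 21.5 CPM and at 66.2, 129 and 124 CPM. Vehicle library 1 was the highest vehicle library for both. Their log2 fold changes were 2.07 ± 0.25 and 1.99 ± 0.34, with adjusted p-values of 0.00953 and 0.0155 in edgeR. Mrps31 rose from 18.4, 16.3 and 17.2 CPM to 38.8, 59.6 and 58.0 CPM, a log2 fold change of 1.59 ± 0.23 (adjusted p-value 0.0109, edgeR).

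Mrps12, the counterpart of the bacterial protein that guards decoding accuracy, was at 11.7, 11.0 and 11.4 CPM in vehicle-treated skin and at 19.5, 24.5 and 25.4 CPM in rebamipide-treated skin. It rose with a log2 fold change of 1.02 ± 0.21 (adjusted p-value 0.0242, edgeR). Mrps21, Mrps36 and Mrps23 had the highest mean FPKM of the small subunit. Mrps21 had the highest mean FPKM of all members, at 91.6 ± 17.9 with vehicle and 149 ± 5.63 with rebamipide. Its normalized counts were 43.5, 53.3 and 67.6 CPM and 115, 145 and 152 CPM, and vehicle library 3 was the highest vehicle library. Mrps23 was at 40.0, 41.1 and 40.4 CPM and at 86.0, 134 and 130 CPM. The log2 fold changes of Mrps21 and Mrps23 were 1.32 ± 0.23 and 1.53 ± 0.22, with adjusted p-values of 0.0163 and 0.011 in edgeR.

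The 5 smallest log2 fold changes of the small subunit were between 0.54 (Mrps26) and 0.87 (Mrps17). Mrps17 and Mrps10 rose, with adjusted p-values of 0.0274 and 0.0409 in edgeR, and both have bacterial counterparts. Mrps26, Mrps18c and Mrps22 did not pass the test, with adjusted p-values of 0.112, 0.0664 and 0.0602 in edgeR. In Mrps26 the vehicle libraries were at 20.9, 16.7 and 15.6 CPM and the rebamipide libraries at 23.3, 28.0 and 26.2 CPM, so the groups did not overlap. Over both subunits, 11 of the 14 members that missed the threshold had all rebamipide libraries above all vehicle libraries, and 7 of the 14 had an adjusted p-value under 0.1. Of the members that passed, 5 lay within 0.02 of the threshold.

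**Figure D2:**
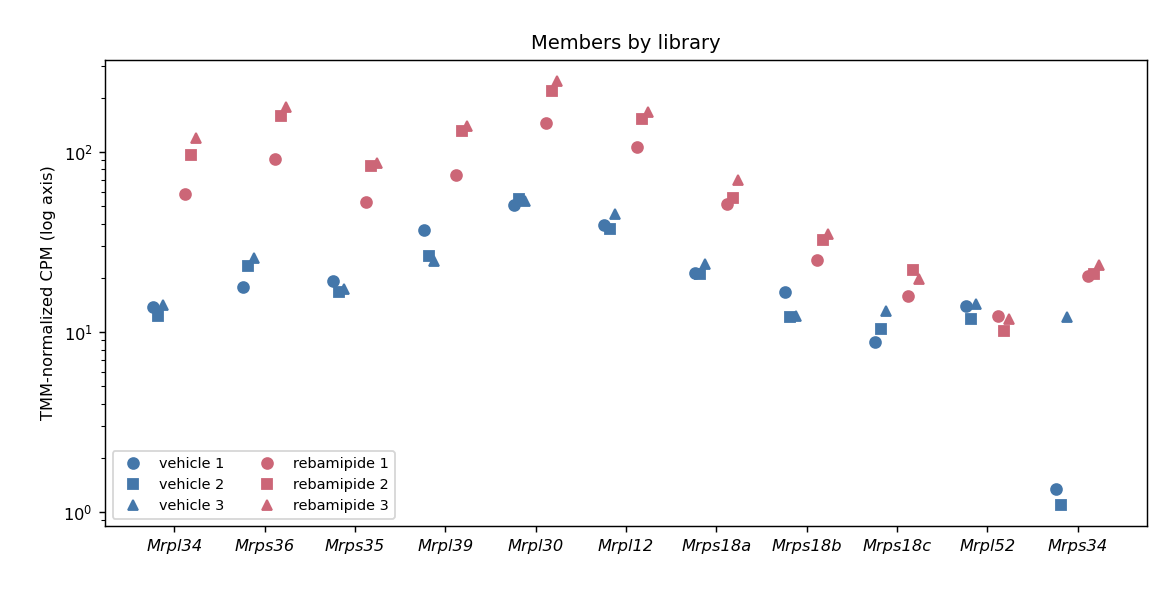
TMM-normalized CPM (log axis) of 11 members in each of the 6 libraries, vehicle blue and rebamipide red, with 1 point per mouse. The rebamipide points lie above the vehicle points for all genes shown except Mrpl52, whose groups overlap. Vehicle library 3 of Mrps34 (12.1 CPM) lies far above the other vehicle libraries (1.34 and 1.10 CPM).

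The Mrps18 paralogues descend from a single bacterial protein and do not take the same place in the ribosome. Mrps18c sits where the bacterial protein does, Mrps18b lies elsewhere in the small subunit, and Mrps18a is built into the large subunit. Mrps18a was at 21.2, 21.02 and 23.8 CPM with vehicle and at 51.7, 55.5 and 69.5 CPM with rebamipide. Mrps18b was at 16.7, 12.2 and 12.3 CPM and at 25.2, 32.3 and 35.1 CPM. Mrps18c was at 8.77, 10.4 and 13.2 CPM and at 15.9, 22.2 and 19.8 CPM. The groups did not overlap in any of the paralogues. Mrps18a and Mrps18b rose, at 1.42 ± 0.19 and 1.17 ± 0.24 on the log2 scale (adjusted p-values 0.0101 and 0.025, edgeR), and Mrps18c did not pass the test, at 0.84 ± 0.26 (adjusted p-value 0.0664). A test of the difference between the paralogues was not run. Of their summed FPKM, Mrps18a took 26.2%, 26.9% and 26.2% in the vehicle libraries and 34.3%, 29.4% and 34.8% in the rebamipide libraries. This share was higher in all rebamipide libraries, while the shares of Mrps18b (24.0% to 36.6% and 29.5% to 31.1%) and Mrps18c (37.2% to 49.8% and 34.1% to 40.3%) overlapped between the groups. In GENCODE M21, 23.2% of the exon bases of Mrps18c are shared with another gene on the same strand, so its counts are uncertain. Mrps18b shares 30.5% of its exon bases with a gene on the opposite strand. Whether counting used strand is not given, so the counts of Mrps18b and the shares of the paralogues are uncertain as well.

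Exons that overlap those of other genes on the same strand were found for 8 members and on the opposite strand for 28. Mrpl53 was listed at 0 counts in all 6 libraries and was not tested. In GENCODE M21, 88.0% of its exon bases lie in exons of Gm42688 on the same strand. Mrps34 had 67, 54 and 565 counts in the vehicle libraries and 625, 542 and 615 with rebamipide. In CPM, its levels were 1.34, 1.10 and 12.1 and 20.6, 21.1 and 23.5. Vehicle library 3 thus lay far above the other vehicle libraries and below all rebamipide libraries. Its log2 fold change of 2.17 had an SE of 0.96, against 0.16 to 0.34 for all other members tested, and did not pass the test (adjusted p-value 0.147, edgeR). Of its exon bases, 37.0% are shared with a gene on the same strand and 63.4% with a gene on the opposite strand. Among the members tested, 17 share over 10% of their exon bases with another gene on either strand. Without them, 32 large and 19 small subunit genes rose, and the medians were 1.17 and 1.32.

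The medians were close for proteins with and without a bacterial counterpart, and their difference was not tested. Of 29 large subunit proteins with a bacterial counterpart, 24 rose (median log2 fold change 1.18), and of 21 mitochondria-specific proteins of the large subunit, 16 rose (median 1.19). In the small subunit, 15 of 16 with a counterpart rose (median 1.33) and 7 of 10 mitochondria-specific ones rose (median 1.28). In these counts Mrps30 and Mrps18a stand with the large subunit and Mrps36 is left out. Across the 77 members the fold change had a Pearson correlation of -0.0965 with gene length and of 0.165 with vehicle FPKM, a description across genes that share the same 6 libraries.

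The members also shared the order of the libraries. Rebamipide library 1 was the lowest of the rebamipide libraries for 74 of the 77 members (96.1%), against 46.5% of all genes tested. Library 3 was the highest for 47 members and library 2 for 27. Relative to the vehicle mean, the median log2 ratio of the members was 0.96 in rebamipide library 1 and 1.32 in each of libraries 2 and 3. Mrpl24, for example, was at 49.9, 83.0 and 80.2 CPM in rebamipide libraries 1, 2 and 3. In library 1 the brown adipocyte markers (4837 CPM) and the share of mitochondrial DNA genes (13.3%) were also the lowest of the rebamipide group, and the fast muscle markers (32619 CPM) and basal keratinocyte markers (1141 CPM) the highest. The part of these values in the order was not tested.

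Genes that act with the mitochondrial ribosome rose as well. Of 5 mitochondrial ribosomal proteins named otherwise, 4 rose, with a median log2 fold change of 1.19. They were Aurkaip1 (1.26), Dap3 (1.23), a GTP-binding protein of the small subunit, Ptcd3 (1.19) and Chchd1 (0.87). Of these, Ptcd3 was closest to the threshold (adjusted p-value 0.0493, edgeR), with 49.7, 116 and 98.6 CPM in the rebamipide libraries against 37.2 to 40.8 CPM in the vehicle libraries. Of 25 factors of ribosome assembly, 16 rose, with a median of 1.00 and all 25 above 0. Rmnd1, which anchors the ribosome near the sites of RNA maturation, was at 7.79, 9.82 and 9.64 CPM with vehicle and at 31.7, 75.1 and 74.2 CPM with rebamipide. Its log2 fold change of 2.73 ± 0.38 (adjusted p-value 0.0105, edgeR) was close to that of Mrpl34. Eral1, which binds the RNA of the small subunit, rose by 1.67 ± 0.21 and Nsun4, an RNA methyltransferase, by 1.60 ± 0.22 on the log2 scale. Dhx30, an RNA helicase, overlapped between the groups, at 34.9 to 60.6 CPM and 53.6 to 80.8 CPM (adjusted p-value 0.138, edgeR).

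Of 15 translation factors tested, 10 rose, with a median of 1.24. Tufm, the elongation factor that delivers aminoacyl-tRNA, was at 72.8, 69.0 and 64.4 CPM with vehicle and at 213, 287 and 299.6 CPM with rebamipide, the highest mean CPM of these factors. Its groups were far apart, with a log2 fold change of 1.96 ± 0.21 (adjusted p-value 0.00939, edgeR). The elongation factor Gfm1 rose by 1.84 ± 0.25, the recycling factor Gfm2 by 1.39 ± 0.18 and Taco1, an activator of translation of cytochrome c oxidase subunit 1, by 1.82 ± 0.22 on the log2 scale. Of 20 mitochondrial aminoacyl-tRNA synthetases and related amidotransferase subunits, 12 rose, with a median of 1.10. The examples were Fars2 (2.12 ± 0.20), Gatb (2.01 ± 0.26), Aars2 (1.66 ± 0.22), Iars2 (1.60 ± 0.23) and Lars2 (1.10 ± 0.18). Over these lists 42 of 65 genes rose, and 0 without vehicle library 2 and 0 without rebamipide library 2. Without rebamipide library 3 the count was 19, where 1394 of all 15327 genes were called in either direction, and without vehicle library 3 it was 26, where 2560 of 15114 were called. DESeq2 called 50, and 5253 of all 14875 genes.

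**Figure D3:**
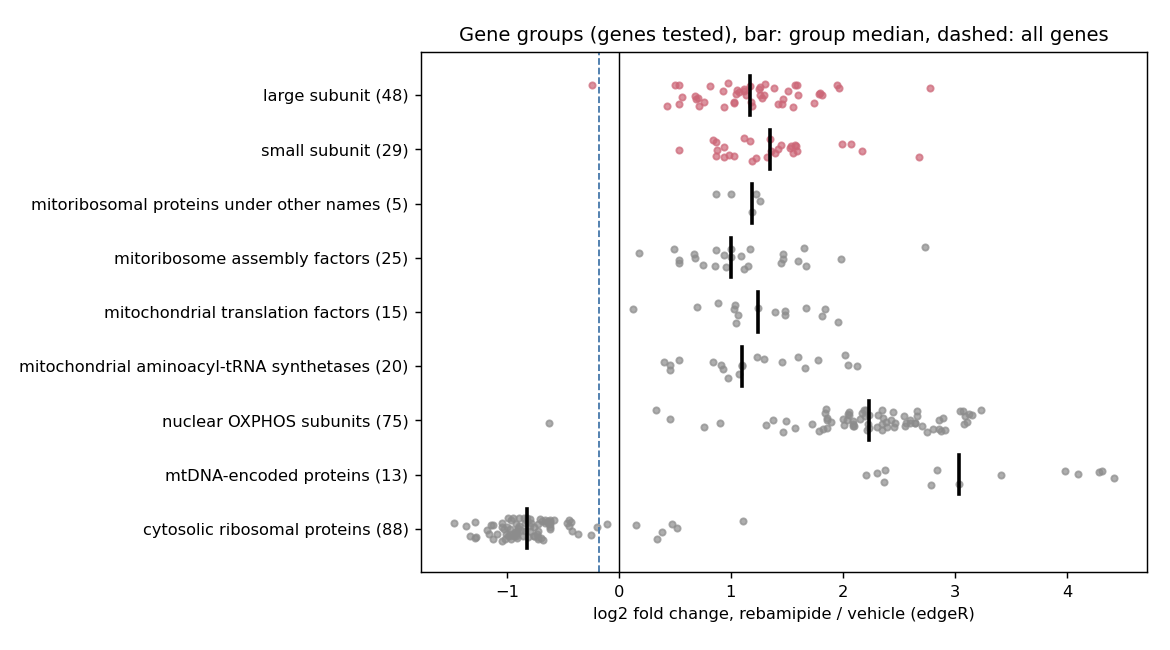
Log2 fold change of rebamipide over vehicle of each gene tested, by gene group, with the number of genes in parentheses. The black bar is the median of the group and the blue dashed line that of all genes. The medians of the large and small subunit (1.17 and 1.34) lie between those of the cytosolic ribosomal proteins (-0.82) and the nuclear OXPHOS subunits (2.23).

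The fold changes of the members lay below those of most respiratory chain subunits and above those of most cytosolic ribosomal proteins. Of 75 nuclear OXPHOS subunits, 71 rose with a median of 2.23, and 75 of the 77 members lay below that median. All 13 proteins encoded by mitochondrial DNA rose, with a median of 3.03. Of 88 cytosolic ribosomal proteins, 29 fell, with a median of -0.82, against 6.51% of all genes that fell. Within each library, where scaling between libraries plays no part, the summed FPKM of the members was 0.224, 0.175 and 0.165 of that of nuclear OXPHOS subunits in the vehicle group. In the rebamipide group it was 0.0987, 0.0940 and 0.0882. The ratio was thus lower in all rebamipide libraries. Against the cytosolic ribosomal proteins, the ratio was 0.0370, 0.0390 and 0.0436 with vehicle and 0.115, 0.211 and 0.244 with rebamipide, higher in all rebamipide libraries. These ratios compare sums of the same libraries and carry no test.

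The ratio of the subunits overlapped between the groups. The summed FPKM of the small subunit was 0.514, 0.548 and 0.584 of that of the large subunit in the vehicle libraries and 0.580, 0.574 and 0.572 in the rebamipide libraries, which lay inside the vehicle range. Without Mrps36 the ratios were 0.490, 0.515 and 0.5497 with vehicle and 0.518, 0.497 and 0.489 with rebamipide. With the subunits by structure they were 0.468, 0.492 and 0.525 and 0.492, 0.476 and 0.467. The groups overlapped in each case, and the order of their means turned. All members together held 0.254%, 0.228% and 0.241% of the vehicle counts and 0.360%, 0.401% and 0.418% of the rebamipide counts. The SD of log2 FPKM between members was 1.04, 1.09 and 1.02 in the vehicle libraries and higher in all rebamipide libraries, at 1.13, 1.20 and 1.22.

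**Figure D4:**
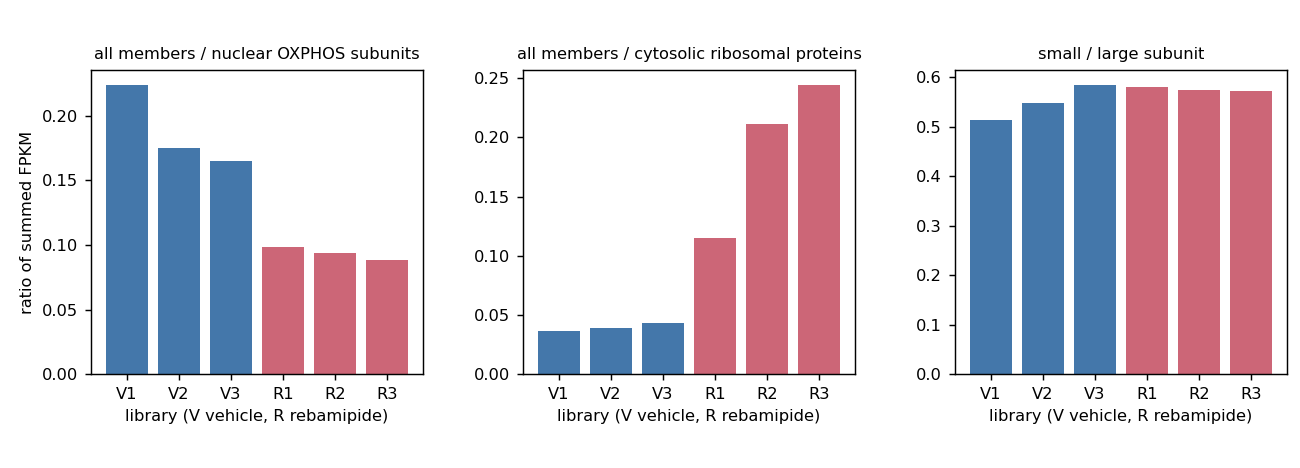
Ratios of summed FPKM within each library (V1 to V3 vehicle, R1 to R3 rebamipide). The ratio of members to nuclear OXPHOS subunits is lower in all rebamipide libraries (0.0882 to 0.0987 against 0.165 to 0.224), the ratio to cytosolic ribosomal proteins is higher (0.115 to 0.244 against 0.0370 to 0.0436), and the ratio of small to large subunit overlaps.

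The size of the rise depended on the scaling between libraries, since the median of all genes moved with it. It was -0.17 with TMM, -0.56 with total counts without mitochondrial DNA genes and -0.78 with total counts alone. The medians of the large and small subunit were 0.77 and 0.94 with the former total and 0.54 and 0.70 with the latter. Relative to the median of all genes the large subunit stood at 1.35, 1.33 and 1.32 and the small subunit at 1.52, 1.49 and 1.48 under the 3 scalings. With total counts without mitochondrial DNA genes, 49 members rose against 9.76% of all genes. With total counts alone, 24 large and 15 small subunit genes rose against 8.45% of all genes, and 70 members had a log2 fold change above 0. Mrpl1, Mrpl23, Mrpl43, Mrpl54, Mrpl57 and Mrps26, all above 0 with TMM and none of them called, were then below 0. Under both TMM and total counts alone, 76 of the 77 members lay above the median of all genes.

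**Figure D5:**
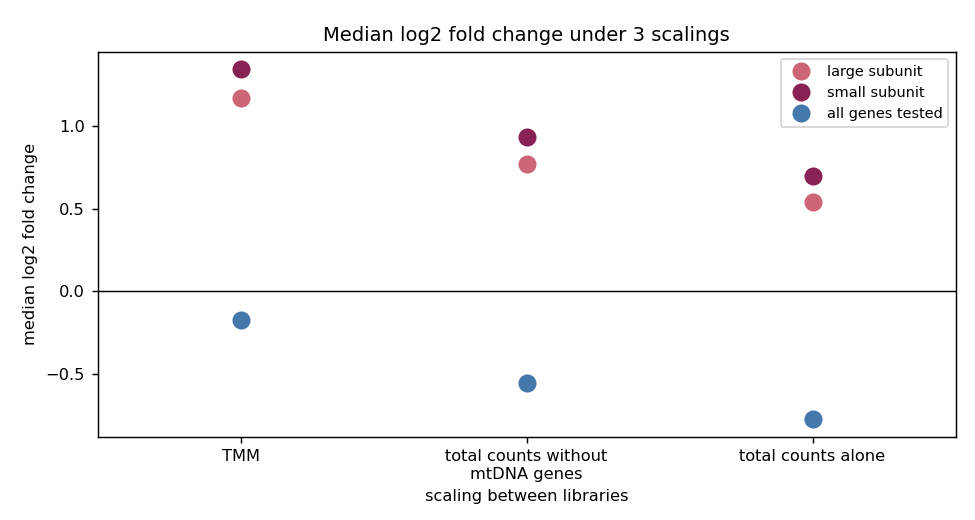
Median log2 fold change of the large subunit, the small subunit and all genes tested under 3 scalings between libraries. All medians shift down together, and the subunits stay 1.32 to 1.52 above the median of all genes.

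Neighbouring genes that start close by on the opposite strand were compared with their member. In GENCODE M21, 33 of the 78 members (42.3%) have a coding gene on the opposite strand that starts within 1000 bases, against 10.8% of 22028 protein-coding genes. Of 29 such neighbours that are no members and were tested, 6 rose and 1 fell, against shares of 14.1% and 6.51% over all genes, so the counts are near the background. Their median log2 fold change was 0.44, against 1.12 for their members and -0.17 over all genes tested. Of the 29, 22 had a smaller fold change than their member. The upper quartile of all genes was 0.56, below the median of these members, so a smaller fold change is common among all genes. Mrps11 and Mrpl46, a pair of members that start head to head, both rose, at 1.18 and 1.25. Mrpl36 and Mrpl47 rose by 0.94 and 1.46 and their neighbours Ndufs6 and Ndufb5, subunits of complex I, by 2.17 and 2.23. The other neighbours that rose were Klc4 (1.72), Cyb5rl (1.39) and Ptcd2 (1.34), whose members Mrpl2, Mrpl37 and Mrps27 rose too. Apba3 rose as well (1.02), while its member Mrpl54 did not pass the test. The neighbours of Mrpl49 and Mrpl51 went the other way in value without passing the test, with Fau at -0.71 and Ncapd2 at -1.16, where the members rose by 1.14 and 1.28. Mtbp, the neighbour of Mrpl13, fell with a log2 fold change of -1.69, and Mrpl13 rose by 1.04. Mrps12 rose by 1.02 and its neighbour Sars2, the mitochondrial seryl-tRNA synthetase, was at 0.46 and did not pass the test. The difference between a member and its neighbour was not tested.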

How the data were processed

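Bulk RNA-seq of 6 skin libraries was analysed, with 3 mice in each group as the labels give it. Poly-A RNA was sequenced. The submitters' processing notes name fastp 0.22.0, HISAT2 2.1.0, HTSeq 0.9.1 and GRCm39, and whether counting used strand is not given in the sources used here. The authors deposited raw counts per gene as whole numbers and FPKM, which were used for levels per gene length and in the ratios. Positions of genes are those of the deposited table, and were not mixed with GENCODE M21 (GRCm38) or the RefSeq promoters (GRCm38.p6), which were matched by symbol.

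The groups were tested with edgeR 4.0.16 in R 4.3.3 (filterByExpr, TMM, quasi-likelihood test, Benjamini-Hochberg adjustment over all 14875 genes tested). The SE given with a log2 fold change was computed from that fold change and the statistic of this test, and so restates the test. The study's methods name DESeq2. Alternatives were DESeq2 1.42.0, limma-voom (limma 3.58.1), limma on log2(FPKM + 1) and log2(FPKM + 0.1), RLE, total counts with and without mitochondrial DNA genes, no filter, at least 10 counts in every sample, the study's thresholds (unadjusted p-value under 0.05, absolute log2 fold change over 1), a replicate block, subunits by structure and each library left out in turn. The latter with limma-voom, leaving out members that overlap other genes, and subunit ratios without Mrps36 or by structure, were added after the data were seen. All 3 tools were run on simulated counts with the same dispersion for all genes and as many genes raised as lowered. The simulation held no shift in mitochondrial DNA share or tissue content, so it does not show how the tools behave on these libraries.

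The members and gene lists were chosen with earlier results of these data known. Named in each subunit were the 5 largest and 5 smallest fold changes, the 3 highest mean FPKM, any member called lower or not tested, and Mrpl12, Mrps12, Mrpl45, Mrpl58, Mrps36 and the Mrps18 paralogues by role. In each other list of translation genes they were the 3 smallest p-values and the 2 highest mean CPM, and the OXPHOS and cytosolic lists are given by counts and medians. Genes named beside library order, overlap, neighbours or promoters were chosen after their values were seen. Replicates differed from each other by far more than counting noise. The ribosomal RNAs of mitochondria were not analysed here.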

Additional observations from a re-analysis of the deposited data

How the results depend on the processing

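The direction of both subunit medians held under all alternatives run. With total counts alone, 24 large and 15 small subunit genes were called higher (medians 0.54 and 0.70), 1 large subunit gene, Mrpl52, was called lower, and 21 of the other translation genes were called higher. With total counts without mitochondrial DNA genes, the medians were 0.77 and 0.94 and 26 other translation genes were called. With limma on log2(FPKM + 1) the medians were 0.49 and 0.66, and with log2(FPKM + 0.1) they were 0.53 and 0.72. Each fit called 1 large subunit gene lower and 23 other translation genes. Over all genes these fits called 6210 and 6168 of 14875 in either direction, and the medians were -0.46 and -0.72. The log2 fold change turned below 0 with total counts alone, log2(FPKM + 1) and log2(FPKM + 0.1) for Mrpl1 (-0.15, -0.13 and -0.16), Mrpl43 (-0.0834, -0.0731 and -0.0808), Mrpl54 (-0.0778, -0.0836 and -0.0879), Mrpl57 (-0.20, -0.17 and -0.19) and Mrps26 (-0.0882, -0.0630 and -0.0724). Mrpl23, no named member, turned to -0.046 with total counts alone. With 1 library left out, edgeR called 0 to 41 large subunit genes, 0 to 27 small subunit genes and 0 to 55 other translation genes, and limma-voom 1 to 40, 1 to 27 and 2 to 53. DESeq2 called 36 to 47, 24 to 29 and 41 to 59. Over all genes, these fits called 0 to 4781 with edgeR, 217 to 4154 with limma-voom and 3518 to 7846 with DESeq2, in either direction. The counts of 0 members and 0 other translation genes are those without vehicle library 2 or rebamipide library 2. There the smallest adjusted p-values of members in edgeR were 0.0747 and 0.0573, with fewer libraries in the fit. Libraries of the same number did not deviate together (correlations -0.016, -0.038 and 0.0032), and those of unlike number ranged from -0.32 to 0.38. The numbers were thus not taken as pairs, but with 3 mice per group these values cannot exclude a shared batch by number. With the number as replicate block, 28 large and 16 small subunit genes and 19 other translation genes were called, and 2287 of all 14875 genes in either direction. Over the 27 named members and all alternatives, 619 of the comparisons kept direction and side of the threshold, 115 lost the call, 34 gained it and 15 turned below 0. The cause of these changes was not tested. With 3 mice per group, p-values measure the spread between these mice alone, and members that miss the threshold are not shown to be unchanged.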
